A study of Mus musculus with 16 samples.

Results

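The comparison set the duodenum of mice with an inducible loss of Neurog3 in the gut epithelium against that of control mice, in 8 of the 16 libraries of the series. The members were the 8 samples labelled as duodenum, 4 mutants and 4 controls, each from a different animal. Mutants were Neurog3f/f; Villin-CreERT2 males, named NFVCT in the labels, which carried loxP-flanked Neurog3 alleles and a tamoxifen-activated Cre recombinase under the promoter of villin, a gene of the intestinal epithelium. Controls were Neurog3f/f males without that transgene, named NF. All were adults of the C57BL/6N background on a standard diet, and tissue was taken 18 weeks after tamoxifen. Since controls lacked the recombinase, its own effect and that of Neurog3 loss cannot be told apart here. Whether controls also received tamoxifen is not stated separately, and neither the layers nor the exact stretch of duodenum are given. Values by library below follow the order NF17, NF29, NF32 and NF152 for controls and NFVCT27, NFVCT38, NFVCT153 and NFVCT190 for mutants.

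Enteroendocrine cells are scattered hormone-releasing cells of the gut lining. They arise from crypt progenitors that switch on Neurog3 for a short time, after which factors such as Neurod1, Insm1, Rfx6 and Nkx2-2 set their hormones. In the duodenum their products include the incretin GIP, cholecystokinin, secretin, ghrelin, somatostatin and serotonin, which act on bile flow, pancreatic secretion, gastric emptying and appetite. The duodenal epithelium also makes cholesterol, takes up dietary lipid, oxidises drugs and other foreign compounds, and houses many intraepithelial lymphocytes.

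Total counts were 11365476 to 18134135 in controls and 10096736 to 35076714 in mutants, and 21116 to 24200 genes had at least 1 count in a library. Levels below are in CPM, the count scaled to library size with TMM factors over the 8 libraries. The villin gene Vil1, a marker of the epithelium, had 2160.4, 2592, 2344 and 1742 CPM in controls and 2969.9, 2158, 2702 and 1378 in mutants. The duodenal factor Pdx1 had 57.8, 72.3, 54.9 and 63.7 CPM in controls and 45.8, 41.5, 32.9 and 57.2 in mutants, and stomach markers were low, at 0.527 to 3.45 summed CPM in controls and 1.48 to 2.79 in mutants, and Vil1 and Pdx1 were present in all 8 libraries. RNA of the pancreas, which lies against the duodenum, varied between libraries: 31 genes of its enzyme-making acinar cells took 17.7, 9.66, 11.2 and 8.18% of counts in controls and 14.4, 2.57, 2.76 and 22.3% in mutants. The highest and lowest shares were both in mutants, and 0 of 30 acinar genes tested were called (median log2 fold change -0.17). The median was 0.18, 0.17 and 0.16 without NF17, NFVCT38 or NFVCT153. It was -0.83 without NFVCT190, and -0.41 to -0.19 when any other library was left out. Fat markers were below the test's filter and were highest in NFVCT38, where Adipoq had 6.76 CPM. The first principal component of the 1000 most variable genes parted the genotypes, with controls at -29.1 to -14.8 and mutants at 13.8 to 27.5.

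Of 14703 genes tested, 58 were called at an adjusted p under 0.05 (edgeR's quasi-likelihood test with Benjamini-Hochberg adjustment, which gives every adjusted p below unless another tool is named). Of these, 14 were higher in mutants (0.0952% of genes tested) and 44 lower (0.299%), as the plot of fold change against level shows. The DESeq2 Wald test called 112 higher and 178 lower, and a fit over all 16 libraries 58 higher and 93 lower, so that the share of higher calls was 24.1% in the main test, 38.6% with DESeq2 and 38.4% with 16 libraries. Over all genes the median log2 fold change was -0.00015. All 4 mutants lay above all 4 controls for 376 genes (2.56%) and below them for 461 (3.14%), which is the background for the counts of groups without overlap below. The 58 called genes all had groups without overlap.

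**Figure D1:**
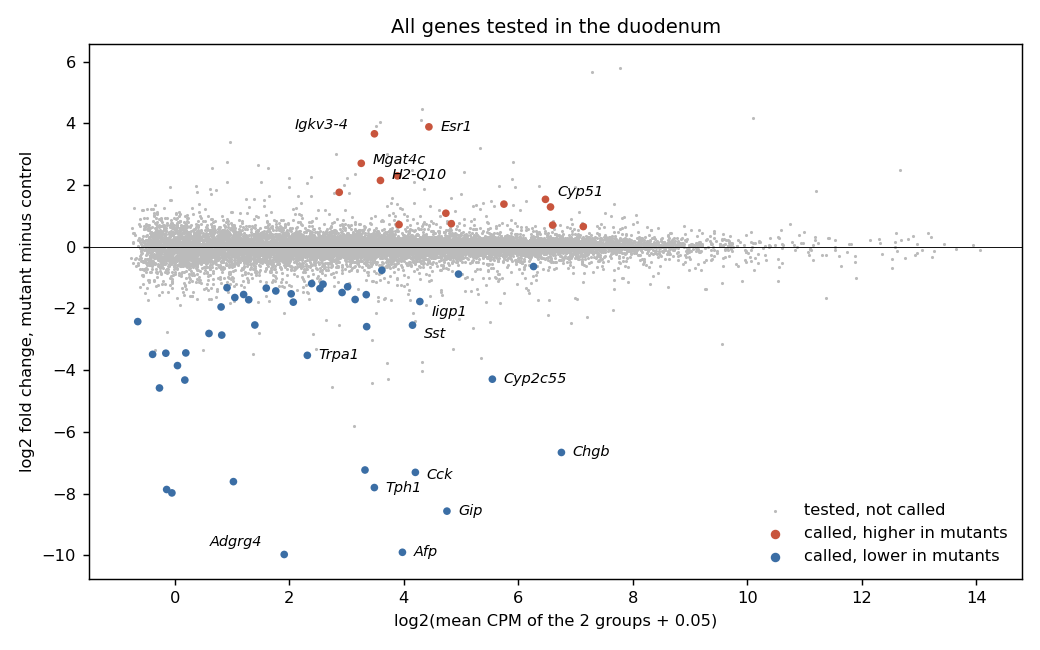
Each point is 1 of the 14703 genes tested in the duodenum, with log2(mean CPM + 0.05) on the x axis and the log2 fold change, mutant minus control, on the y axis. The 44 genes called lower (blue) reach much further from 0 than the 14 called higher (red), with Chgb, Gip, Cck and Afp among the lowest.

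Most hormone genes of the duodenum fell in mutants. Of 11 hormone genes listed, 8 were tested, 6 were called lower, and none higher. The 8 tested had a median log2 fold change of -2.96. Gip, the incretin of K cells, had 51.2, 55.2, 47.6 and 60.7 CPM in controls and 0.0778, 0.0536, 0.239 and 0 in mutants (adjusted p = 9.26e-08, log2 fold change -8.57, SE 0.31). The lowest control was thus far above the highest mutant. Cck, which codes for cholecystokinin, the hormone that contracts the gall bladder, had 41.2, 33.9, 28.1 and 42.9 CPM in controls and 0, 0.161, 0.425 and 0 in mutants (adjusted p = 0.000126, log2 fold change -7.31, SE 0.47), with no count in NFVCT27 or NFVCT190. Ghrl, the ghrelin gene, had 17.3, 21.2, 10.9 and 29.3 CPM in controls and 0.0778, 0.107, 0 and 0.604 in mutants (adjusted p = 0.00579, log2 fold change -7.24, SE 0.73).

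A second set of hormone genes kept a readable level in every mutant library. Sst, the gene of the inhibitory hormone somatostatin, had 32.1, 31.9, 26.3 and 30.5 CPM in controls and 5.06, 5.95, 4.38 and 5.44 in mutants (adjusted p = 4.69e-06, log2 fold change -2.54, SE 0.14). Sct, the gene of secretin, which calls forth pancreatic bicarbonate, had 13.1, 24.1, 9.92 and 22.6 CPM in controls and 3.04, 2.84, 3.32 and 2.21 in mutants (adjusted p = 0.00287, log2 fold change -2.59, SE 0.29). Tac1, which codes for tachykinins such as substance P and is also a gene of enteric neurons, had 3.99, 4.05, 4.62 and 5.11 CPM in controls and 0.623, 1.02, 0.850 and 0.403 in mutants (adjusted p = 0.00141, log2 fold change -2.54, SE 0.27). In mutants these 3 genes stood at 16.5, 16.7 and 17.6% of their control level, against 0.255% for Gip, 0.639% for Cck and 0.542% for Ghrl. These levels are counts pooled over a group and scaled to library size. In such bulk tissue, fewer cells of a type and less RNA per cell cannot be told apart. The summed CPM of 15 enteric neuron genes was 42.8 to 79.2 in controls and 55.9 to 71.7 in mutants. The part of enteric neurons, or of pancreatic islet RNA, in what remained of Sst, Sct and Tac1 was not tested.

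Gcg, the proglucagon gene, did not pass, although its groups did not overlap: it had 10.9, 10.5, 9.66 and 8.47 CPM in controls and 0.0778, 2.04, 0 and 2.31 in mutants (adjusted p = 0.348, log2 fold change -3.32, SE 1.01). Pyy overlapped between groups, with 0.527, 2.67, 0.0855 and 2.30 CPM in controls and 0.545, 1.501, 0.0266 and 2.01 in mutants (adjusted p = 0.955, log2 fold change -0.64, SE 1.09). The summed CPM of 4 pancreatic islet genes (Ins1, Ins2, Iapp and Ppy) was 22.7, 2.07, 26.9 and 5.01 in controls and 24.8, 39.9, 0.186 and 77.4 in mutants. In mutants the islet sum, Gcg and Pyy were all lowest in NFVCT153, but NFVCT27 had an islet sum of 24.8 with Gcg at 0.0778. In controls Pyy was highest in NF29 and NF152, where the islet sum was lowest. The part of islet RNA in Gcg and Pyy was not tested. Of the 3 hormone genes below the filter, Nts had 33 counts over the controls and 3 over the mutants, Gast had 3 and 0, and Insl5, a colonic hormone, had 0 in every library.

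The 250 bases before the RefSeq transcription start held the E-box CATCTG, on either strand (CAGATG on the other), in 5 of the 11 hormone genes (45.5%), against 16.3% of 27025 genes. These were the called genes Cck, Sct and Tac1, and also Gcg and Insl5, which were not called. The called genes Gip, Ghrl and Sst held no match. E-boxes are the short sites to which basic helix-loop-helix proteins such as Neurog3 and Neurod1 bind. A match is a description of letters and no evidence of binding. The last 60 bases before the start of Cck, a called gene with such a match close to its start, are shown with the E-box in capitals (RefSeq, build GRCm38.p6, 5′ to 3′ in the gene's direction).
Cck (chr9:121495695-121495754, minus strand): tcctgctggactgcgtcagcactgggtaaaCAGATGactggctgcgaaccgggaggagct

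**Figure D2:**
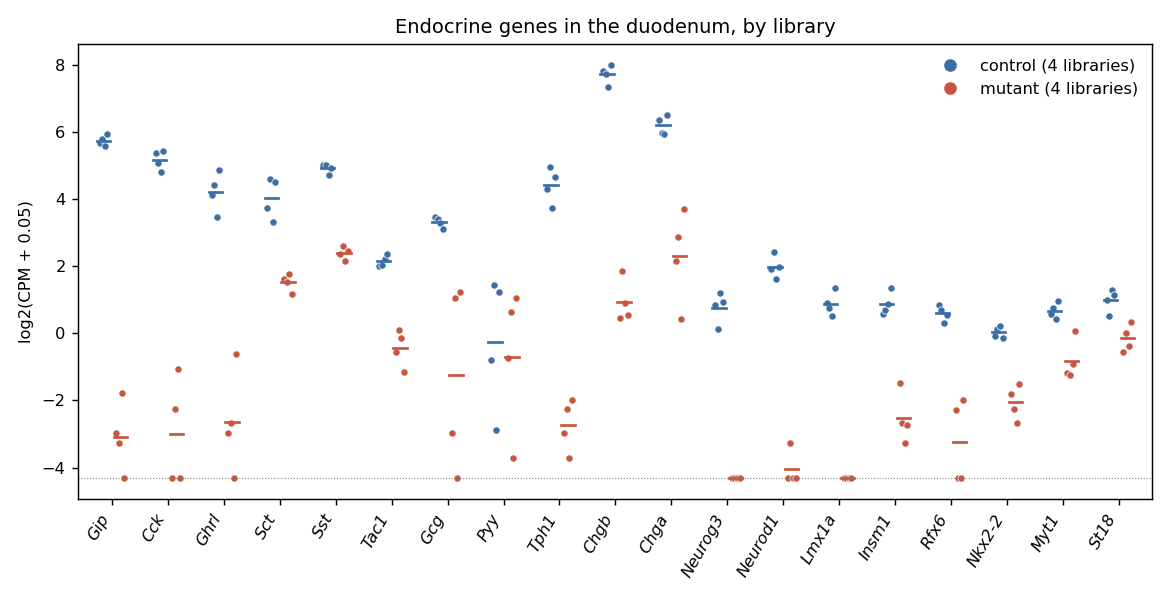
Each point is 1 duodenal library (blue controls, red mutants), the bars are group means on the log2 scale, and the y axis is log2(CPM + 0.05), with 0 counts on the dotted line. Neurog3 and Lmx1a lie on that line in the 4 mutants, Sst, Sct, Tac1 and Chga stay above it in every mutant, and only Pyy overlaps between the groups shown.

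The transcription factors of the endocrine lineage fell too. Neurog3, the targeted gene and the check of the labels, had 1.73, 1.03, 2.22 and 1.85 CPM in controls and 0 counts in each mutant library, at least 45.7-fold lower, or at least 23.9-fold with NFVCT153 left out, against a floor of 3 counts over the group (adjusted p = 0.00413). Lmx1a, a factor of serotonin-making enterochromaffin cells, had 1.81, 1.64, 1.37 and 2.51 CPM in controls and 0 in each mutant, at least 50.8-fold lower, or at least 26.6-fold with NFVCT153 left out, by the same floor (adjusted p = 0.00287). Neurod1, a direct follower of Neurog3, had 3.69, 5.26, 2.99 and 3.86 CPM in controls and 1 count in all mutants, in NFVCT38, or 0.322% of its control level (95% interval 0.00812 to 1.81%), with adjusted p = 5.17e-05. No mutant library reached the lowest control for any of these 3 genes.

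Of 8 such factors tested of 13 listed, 6 were called lower and none higher (median -4.22, all 8 without overlap). Insm1, a zinc finger repressor, had 1.43, 1.55, 1.80 and 2.51 CPM in controls and 0.311, 0.107, 0.0531 and 0.101 in mutants (adjusted p = 0.00460, log2 fold change -3.85, SE 0.48). Rfx6, which keeps up hormone genes in the gut and pancreas, had 1.73, 1.55, 1.20 and 1.40 CPM in controls and 0.156, 0, 0 and 0.201 in mutants (adjusted p = 0.0171, log2 fold change -4.58, SE 0.69). Nkx2-2, a homeodomain factor, had 0.903, 1.03, 1.11 and 0.852 CPM in controls and 0.233, 0.161, 0.106 and 0.302 in mutants (adjusted p = 0.0376, log2 fold change -2.43, SE 0.42). Levels were low, so single counts weigh on these 3 values. Myt1 and St18, related zinc finger genes, did not pass (adjusted p = 0.103, log2 fold change -1.57, SE 0.36 for Myt1, and adjusted p = 0.143, log2 fold change -1.20, SE 0.30 for St18). Among factors below the filter, Pax4 and Fev had 20 and 22 counts over the controls and 0 over the mutants, Pax6 had 44 and 1, and Isl1 had 48 and 11. Rfx6 lost its call in 4 of the 8 fits that left out 1 library (without NF17, NF29, NF152 or NFVCT38, adjusted p up to 0.0902), and Nkx2-2 in 7, all but that without NFVCT190 (up to 0.137).

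Genes of hormone granules and their release fell in part. Chgb, a chromogranin of the granule core, had 224, 211, 161 and 256 CPM in controls and 1.32, 3.59, 1.81 and 1.41 in mutants (adjusted p = 5.09e-06, log2 fold change -6.67, SE 0.32). In mutants it stood at 0.955% of its control level. Its relative Chga, also present in islet cells, had 82.1, 62.6, 61.7 and 91.3 CPM in controls and 4.44, 7.18, 1.30 and 12.9 in mutants (adjusted p = 0.0919, log2 fold change -3.61, SE 0.64) and did not pass, while its groups did not overlap. For Chga the alternatives were split: DESeq2 (adjusted p = 6.78e-06) and limma-voom (adjusted p = 0.00603) called it lower. The main test without NF17 and NFVCT190 did not (adjusted p = 0.171). In the main test Chgb was the 1 called of 14 granule and processing genes tested (median -0.27, 5 without overlap and lower, 1 without overlap and higher). Pcsk1, the protease that cuts prohormones, had 20.5, 18.9, 15.2 and 24.3 CPM in controls and 9.26, 8.69, 13.1 and 6.74 in mutants (adjusted p = 0.0603, log2 fold change -1.05, SE 0.21). Of 23 genes of regulated exocytosis, 2 were called lower (median -0.14). Stxbp5l, a regulator of vesicle fusion, had 1.35, 1.55, 1.54 and 3.61 CPM in controls and 0.0778, 0.161, 0.239 and 0.201 in mutants (adjusted p = 0.00872, log2 fold change -3.44, SE 0.47), and lost its call without NFVCT38 (adjusted p = 0.0539). Rimbp2, a protein of release sites, went from 2.72 to 0.681 mean CPM (adjusted p = 0.0145, log2 fold change -1.95, SE 0.29), and lost its call without NF17 or NF29 (up to 0.0775).

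The gene of the entry step of serotonin synthesis fell. Tph1, the rate-limiting hydroxylase of enterochromaffin cells, had 19.5, 30.6, 13.3 and 25.3 CPM in controls and 0.0778, 0.161, 0.0266 and 0.201 in mutants (adjusted p = 1.27e-05, log2 fold change -7.81, SE 0.45). It was the 1 called of 7 serotonin pathway genes tested (median -0.41). Ddc, the next enzyme, which enterocytes also make, had 254, 344, 206 and 255 CPM in controls and 199.6, 169, 164 and 122 in mutants (adjusted p = 0.183, log2 fold change -0.69, SE 0.19), lower in every mutant but not called. The reuptake transporter Slc6a4 overlapped between groups (adjusted p = 0.994, log2 fold change -0.01, SE 0.18). Among the receptors for gut hormones and serotonin, 0 of 12 tested were called. Of these, 10 had log2 fold changes above 0 (median 0.42), and 2, the serotonin receptor Htr3a (adjusted p = 0.191, log2 fold change 0.85, SE 0.23) and the tachykinin receptor Tacr1 (adjusted p = 0.303, log2 fold change 0.61, SE 0.20), had mutants above all controls.

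Of 12 nutrient and irritant sensors tested, 1 was called, Trpa1, an irritant-gated cation channel of enterochromaffin cells and sensory nerves. Trpa1 had 8.88, 9.05, 6.67 and 11.6 CPM in controls and 1.48, 0.643, 0.664 and 0.403 in mutants (adjusted p = 0.000411, log2 fold change -3.52, SE 0.32). Several sensors fell below the filter: Asic5 had 27 counts in controls and 0 in mutants, Sstr5 20 and 0, Avpr1b 12 and 0, Ffar1 19 and 6. The fatty acid receptor Ffar4 overlapped between groups (log2 fold change 0.06, SE 0.33).

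Some of the deepest falls were in genes that the endocrine lists did not hold. Afp, best known as a serum protein of the fetal liver and yolk sac, had 34.9, 33.3, 24.5 and 32.6 CPM in controls and 2 counts in all mutants, or 0.0801% of its control level (95% interval 0.00969 to 0.290%), with adjusted p = 8.17e-08. Adgrg4, an adhesion receptor gene, had 5.64, 9.65, 6.24 and 8.12 CPM in controls and 0 in each mutant, at least 196.8-fold lower, or at least 103.1-fold with NFVCT153 left out, by that floor (adjusted p = 0.000114). Vwa5b2 had 1.88, 1.81, 2.39 and 2.004 CPM in controls and 0.0778, 0, 0.0531 and 0.403 in mutants (adjusted p = 0.00872, log2 fold change -4.32, SE 0.59). For Vwa5b2 the highest mutant was NFVCT190, still below every control. Gfra3, a receptor for the neurotrophic factor artemin, also fell (adjusted p = 0.00301, log2 fold change -3.45, SE 0.41), as did Pzp, a protease inhibitor gene (adjusted p = 0.00141, log2 fold change -2.81, SE 0.30). Slc38a11, of an amino acid transporter family, fell (adjusted p = 0.0171, log2 fold change -3.49, SE 0.53), and so did Baiap3, a gene of dense-core vesicle traffic (adjusted p = 0.0205, log2 fold change -1.43, SE 0.22). Slc38a11 lost its call when 1 of 4 libraries was left out (NF29, NF152, NFVCT38 or NFVCT153, up to 0.0870). Baiap3 lost its call in 5 (NF29, NF32, NF152, NFVCT27 or NFVCT38, up to 0.0913). The predicted gene Gm45769 was also called lower, and lost its call whichever library was left out.

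Enzymes of cholesterol synthesis made up 6 of the 14 genes called higher in mutants. Cells build cholesterol from acetyl-CoA through mevalonate, squalene and lanosterol, and SREBP2 (Srebf2) switches on the genes of this route when sterols are scarce. Of 22 enzymes tested, 6 were called higher, all 22 had log2 fold changes above 0 (median 0.77), and 12 had every mutant above every control. The 6 act from squalene onward, and 5 of them are described here and in the plot in pathway order. Sqle, which makes squalene epoxide, had 27.1, 37.8, 30.4 and 24.0 CPM in controls and 56.2, 66.7, 113 and 73.5 in mutants (adjusted p = 0.0317, log2 fold change 1.38, SE 0.22). Lss, the enzyme that closes the ring to lanosterol, had 14.0, 20.9, 18.3 and 14.8 CPM in controls and 29.4, 33.9, 39.9 and 41.0 in mutants (adjusted p = 0.0124, log2 fold change 1.09, SE 0.16). Cyp51, the lanosterol demethylase, had 45.5, 50.1, 47.4 and 39.2 CPM in controls and 128, 128, 171 and 101 in mutants (adjusted p = 0.00135, log2 fold change 1.54, SE 0.16). The lowest mutant for Cyp51 was NFVCT190, still far above the highest control.

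The later steps moved the same way. Msmo1, a sterol methyl oxidase, had 50.9, 72.7, 48.1 and 47.9 CPM in controls and 132, 109, 191 and 103 in mutants (adjusted p = 0.0326, log2 fold change 1.29, SE 0.21). Hsd17b7, a sterol ketone reductase, had 18.2, 25.8, 22.6 and 18.3 CPM in controls and 33.2, 35.9, 40.4 and 32.4 in mutants (adjusted p = 0.0471, log2 fold change 0.75, SE 0.14). NFVCT153 was the highest mutant for Sqle, Cyp51, Msmo1 and Hsd17b7. Nsdhl and Mvk did not pass (adjusted p = 0.0523, log2 fold change 0.75, SE 0.14 for Nsdhl, and adjusted p = 0.0523, log2 fold change 1.01, SE 0.19 for mevalonate kinase). Ebp and Sc5d, later enzymes but not the last of the route, had log2 fold changes of 0.12 (SE 0.18) and 0.13 (SE 0.18).

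**Figure D3:**
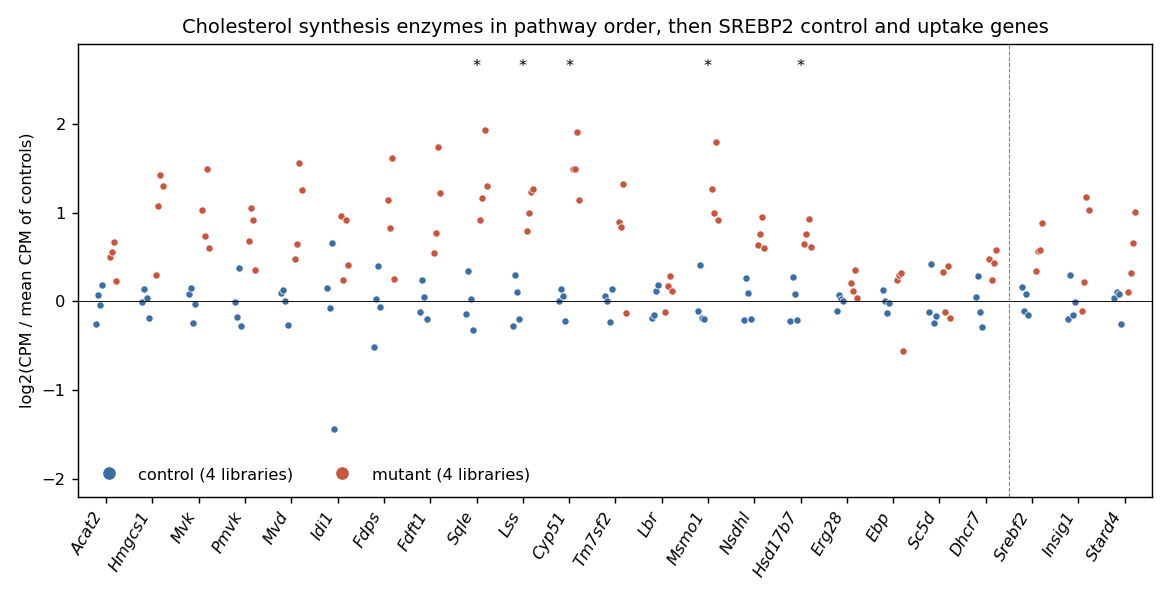
Points are duodenal libraries (blue controls, red mutants), in log2 of CPM over the mean of the 4 controls, for 20 of the 22 cholesterol synthesis enzymes in pathway order and, right of the dashed line, 3 genes of SREBP2 control and uptake; a star marks an adjusted p under 0.05. The 5 starred enzymes lie at or after squalene epoxidation, and for all 5 the 4 mutants lie above the 4 controls.

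Cyp51 kept its call in the 8 fits that left out 1 library, Lss lost it without NF17 or NF152 (adjusted p up to 0.0775), and Sqle, Msmo1 and Hsd17b7 lost theirs in 5, 5 and 7 (up to 0.141, 0.141 and 0.191). With the acinar score as covariate, only Cyp51 and Lss of the list were called, and 21 of 22 were above 0 (median 0.69). Without NF17 and NFVCT190, the libraries of highest acinar share, only Cyp51 was called, and all 22 were above 0 (median 0.87).

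Genes of sterol control were mostly above 0 without a call. Of 13 genes of SREBP2 control and lipoprotein uptake, 0 were called, 11 were above 0 (median 0.18) and 4 had mutants above all controls. Among these were Srebf2 itself (adjusted p = 0.0919, log2 fold change 0.61, SE 0.13) and the sterol carrier Stard4 (adjusted p = 0.303, log2 fold change 0.57, SE 0.18). Srebf2 had 77.5, 64.3, 73.8 and 62.3 CPM in controls and 88.3, 103, 104 and 128 in mutants. Of 13 genes of sterol efflux and the sterol sensor LXR, 0 were called (median -0.11). Abca1, a cholesterol exporter that LXR switches on, came closest, at 82.6, 159, 87.3 and 69.1 CPM in controls and 33.7, 39.9, 43.5 and 42.0 in mutants (adjusted p = 0.0547, log2 fold change -1.32, SE 0.24). Its 4 mutants lay within a narrow range below all controls.

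Fat handling beyond sterols was not called. Of 15 fatty acid synthesis genes, 13 were above 0 (median 0.35) and 3 had mutants above all controls, among them Scd1, a desaturase, with 13.7, 19.4, 11.9 and 17.5 CPM in controls and 27.9, 314, 53.1 and 22.1 in mutants (adjusted p = 0.446, log2 fold change 2.74, SE 0.96). The NFVCT38 value for Scd1 stands far above the rest, and NFVCT38 also had the highest fat markers. The part of fat tissue in it was not tested. Of 21 genes of fat uptake and chylomicron assembly, 15 were below 0 (median -0.20), but without NF29 or without NFVCT190 only 10 were (medians of 0.02 and 0.01). Fabp2, the enterocyte fatty acid carrier, and Apob, the chylomicron scaffold, had every mutant below every control (adjusted p = 0.166, log2 fold change -1.19, SE 0.31 for Fabp2, and adjusted p = 0.535, log2 fold change -0.69, SE 0.30 for Apob). Sugar digestion (14 genes, median 0.21) and fatty acid oxidation (19 genes, median -0.06) held no gene without overlap.

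The 250 bases before the start held the CCAAT box, CCAAT on either strand, in 15 of the 17 cholesterol synthesis genes with a RefSeq promoter (88.2%), against 37.5% of 27025 genes. The factor NF-Y binds this box and is known to work beside SREBP proteins. The core of the sterol response element, CACCCCAC on either strand, was present in 2 of the 17 (11.8%), against 2.98% of all. The motifs were searched separately, and matches of both can share at most 1 base. Stretches before the start of 4 called enzymes are shown with each CCAAT box in capitals, ATTGG where it lies on the other strand (RefSeq, build GRCm38.p6, 5′ to 3′ in the gene's direction, ending at the base before the start).
Cyp51 (chr5:4104698-4104777, minus strand): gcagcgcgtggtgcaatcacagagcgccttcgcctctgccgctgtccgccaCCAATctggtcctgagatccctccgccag
Lss (chr10:76531525-76531604, plus strand): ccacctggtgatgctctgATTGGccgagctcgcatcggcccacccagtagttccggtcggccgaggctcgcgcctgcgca
Msmo1 (chr8:64733579-64733678, minus strand): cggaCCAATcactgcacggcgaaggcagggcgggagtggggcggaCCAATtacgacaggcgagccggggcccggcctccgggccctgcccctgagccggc
Hsd17b7 (chr1:169969206-169969285, minus strand): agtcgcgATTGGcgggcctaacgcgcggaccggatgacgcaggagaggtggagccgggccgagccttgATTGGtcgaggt

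T cell and natural killer cell genes held the largest group of immune calls, all lower in mutants. Of 31 tested, 6 were called lower and none higher, 30 were below 0 (median -1.14) and 22 had every mutant below every control. Lck, the kinase of the T cell receptor, had 8.65, 8.45, 9.66 and 6.41 CPM in controls and 3.27, 2.95, 3.98 and 2.52 in mutants (adjusted p = 0.0124, log2 fold change -1.36, SE 0.19). Cd3e, a chain of that receptor complex, had 6.92, 6.89, 8.38 and 3.51 CPM in controls and 2.02, 1.45, 1.75 and 2.21 in mutants (adjusted p = 0.0193, log2 fold change -1.80, SE 0.28). Itgae, which codes for the integrin that holds intraepithelial lymphocytes to the epithelium, had 38.7, 38.9, 47.7 and 35.6 CPM in controls and 24.9, 21.0, 24.5 and 16.2 in mutants (adjusted p = 0.0328, log2 fold change -0.89, SE 0.15). Nkg7, a protein of cytotoxic granules, and Klrd1, a natural killer receptor, also fell (adjusted p = 0.0299, log2 fold change -1.53, SE 0.25 for Nkg7, and adjusted p = 0.0412, log2 fold change -1.55, SE 0.28 for Klrd1), as did the T cell receptor segment Tcrg-C2.

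The genes of the killing machinery had large differences that were not called. Gzma, granzyme A, had 116, 147, 120.0 and 115 CPM in controls and 54.0, 38.2, 42.9 and 14.2 in mutants (adjusted p = 0.0927, log2 fold change -1.73, SE 0.34), and granzyme B (Gzmb) did not pass either (adjusted p = 0.213, log2 fold change -1.57, SE 0.40). Cd4 had 16.9, 15.7, 16.3 and 13.2 CPM in controls and 8.79, 9.81, 11.7 and 8.45 in mutants (adjusted p = 0.0905, log2 fold change -0.67, SE 0.15), while Cd8a overlapped between groups, since NFVCT27 at 14.8 CPM exceeded NF17 at 13.6. Summed over the 34 list genes, CPM was 372, 478, 440.0 and 348 in controls and 217, 161, 187 and 103 in mutants, lowest in NFVCT190, the mutant with the largest acinar share. With the acinar score as covariate 3 of the 31 were called (median -1.21), and without NF17 and NFVCT190, the libraries of highest acinar share, 1 of 32 (median -1.15). Immune genes called outside the list were the interleukin 21 receptor Il21r (adjusted p = 0.0376, log2 fold change -1.65, SE 0.29), the immune GTPase Gimap7 (adjusted p = 0.0444, log2 fold change -1.19, SE 0.22), the protein kinase Prkch (adjusted p = 0.0331, log2 fold change -0.76, SE 0.13), the surface protein Ly6c2 (adjusted p = 0.0165, log2 fold change -1.48, SE 0.22) and the B cell survival factor Tnfsf13b (adjusted p = 0.0378, log2 fold change -1.3, SE 0.23). All 5 were lower in mutants.

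B cell, plasma cell and myeloid lists held no call. Of 10 B and plasma cell genes tested, 0 were called (median 0.08), and the immunoglobulin chain Ighm was nearest (adjusted p = 0.0537, log2 fold change -0.92, SE 0.17). Of 15 macrophage and dendritic cell genes, 0 were called and 5 had mutants below all controls (median -0.40), Lyz2 with the smallest p (adjusted p = 0.0720, log2 fold change -0.85, SE 0.18). Whether the T cell list differed from these lists was not tested. Epithelial signals to lymphocytes, such as Il15 (adjusted p = 0.555, log2 fold change -0.50, SE 0.22) and the butyrophilin-like genes, held 0 calls and no gene without overlap among 15 (median -0.18). Lck lost its call without NF17 or NFVCT38 (adjusted p up to 0.0664), Ly6c2 in 3 fits without 1 library (NF17, NF152 or NFVCT38, up to 0.0816), and Cd3e, Nkg7, Itgae, Klrd1, Il21r, Gimap7, Prkch, Tnfsf13b and Tcrg-C2 in 5 to 8 (up to 0.173).

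A few genes of the interferon gamma response fell in mutants. Interferon gamma, made by T and natural killer cells, raises guanylate-binding proteins, immunity-related GTPases and antigen presentation in the cells it reaches. Of 35 such genes tested, 4 were called lower and none higher, 34 were below 0 (median -0.78) and 17 had mutants below all controls. Iigp1, an immunity-related GTPase, had 38.5, 19.7, 33.6 and 27.8 CPM in controls and 10.3, 7.08, 7.78 and 10.1 in mutants (adjusted p = 0.00303, log2 fold change -1.78, SE 0.21). Cxcl9, a chemokine that draws activated T cells, had 16.6, 11.4, 17.1 and 9.22 CPM in controls and 4.20, 4.02, 5.44 and 2.52 in mutants (adjusted p = 0.0171, log2 fold change -1.71, SE 0.26). Nlrc5, the transactivator of MHC class I, had 16.3, 9.22, 23.5 and 11.2 CPM in controls and 5.29, 4.13, 5.10 and 6.04 in mutants (adjusted p = 0.0450, log2 fold change -1.55, SE 0.27). For these 3 genes no mutant reached the lowest control. Gbp4, a guanylate-binding protein, fell as well (adjusted p = 0.0375, log2 fold change -1.21, SE 0.21), and so did Tgtp2, another GTPase of the family (adjusted p = 0.0317, log2 fold change -1.72, SE 0.29), and the predicted gene Gm12185.

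Ubd, a ubiquitin-like gene induced by the cytokine, did not pass. It had 21.3, 12.9, 43.8 and 4.71 CPM in controls and 1.40, 0.643, 1.27 and 0.302 in mutants (adjusted p = 0.0927, log2 fold change -4.41, SE 0.80), with controls spread widely. The class I genes B2m (adjusted p = 0.635, log2 fold change -0.64, SE 0.32) and H2-K1 (adjusted p = 0.660, log2 fold change -0.55, SE 0.29) overlapped between groups. Ifng was near 0 throughout, at most 0.0778 CPM in a library. A list of 15 genes of the interferon alpha response held 0 calls and no gene without overlap, with a median of 0.12. With the acinar score as covariate 2 of the 35 interferon gamma genes were called (median -0.74). Iigp1 was called whichever library was left out. Cxcl9 lost it in 4 (NF17, NF32, NFVCT27 or NFVCT38, up to 0.0870), Tgtp2 in 6, and Gbp4 and Nlrc5 in 7 each (up to 0.155).

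MHC class II genes, which present peptides to CD4 T cells and which the gut epithelium also makes, had no call among 11 tested, but all 11 were below 0 (median -1.0) and 7 had mutants below all controls. Ciita, their master transactivator, had 63.5, 47.1, 72.0 and 39.5 CPM in controls and 17.7, 17.5, 31.3 and 19.5 in mutants (adjusted p = 0.0524, log2 fold change -1.36, SE 0.24). H2-Aa, a class II chain, had 907, 979.9, 932 and 709 CPM in controls and 462, 306, 449 and 161 in mutants (adjusted p = 0.0905, log2 fold change -1.36, SE 0.29). The invariant chain Cd74 had 2220.3, 1948, 2357 and 1537 CPM in controls and 1185, 927, 1205 and 447 in mutants (adjusted p = 0.207, log2 fold change -1.10, SE 0.31). NFVCT190 was the lowest for H2-Aa and Cd74, as it was for the sum of 6 enterocyte markers, 7657 CPM against 15321 to 31167 in controls. Without NF17 and NFVCT190, all 11 remained below 0, with a median of -0.76, and 0 were called. DESeq2 called 7 of the 11 lower, the fit over 16 libraries 3, and limma-voom 0.

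**Figure D4:**
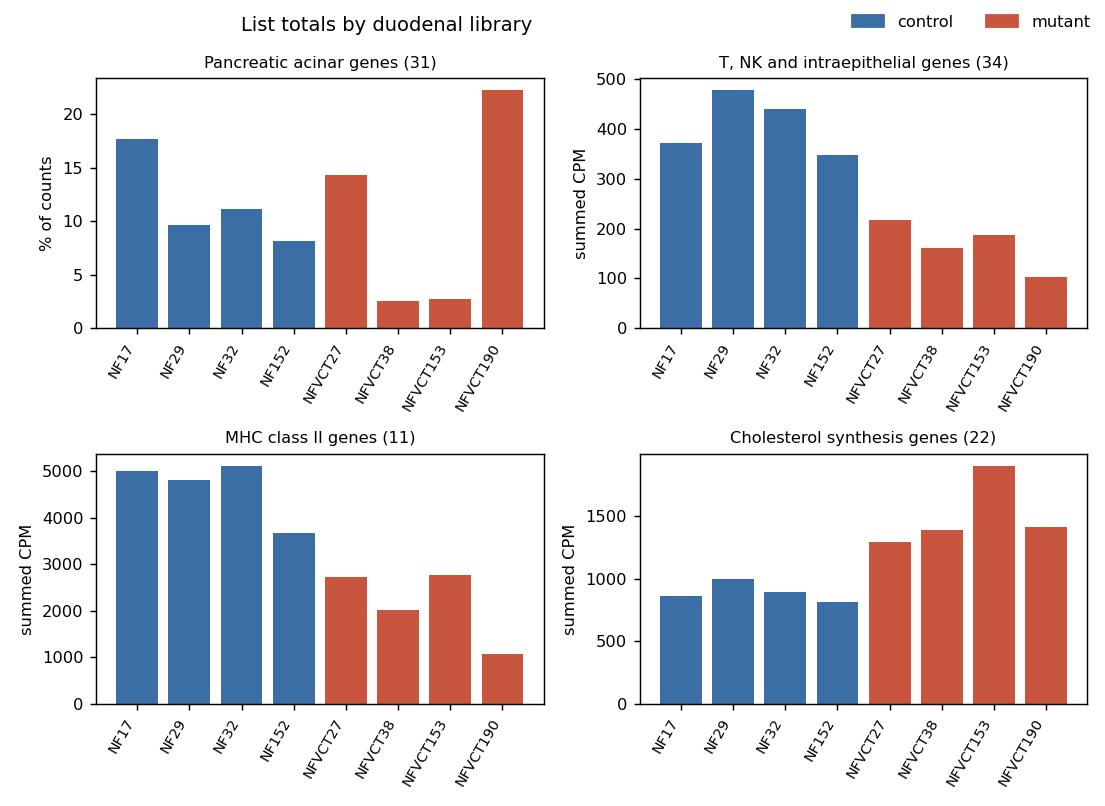
Bars give, for each duodenal library (blue controls, red mutants), the share of counts in 31 pancreatic acinar genes, and the summed CPM of the T and natural killer cell, MHC class II and cholesterol synthesis lists. The acinar share runs from 2.57 to 22.3% within the mutants, whereas in the other 3 panels the 4 mutants lie on 1 side of the 4 controls.

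Before the start of the interferon gamma genes, the interferon-stimulated response element (GAAA, any 2 bases, GAAA), on either strand, was present in 10 of 27 genes with a promoter (37.0%), against 3.46% of 27025, and the gamma-activated site TTCNNNGAA in 8 (29.6%), against 8.13%; matches of both can share the letters GAA. The MHC class II genes held each in 1 of 8 (12.5%). Stretches of 60 bases are shown for 3 GTPase genes whose mutants lay below all controls, with both motifs in capitals. Irgm2 had 58.6, 35.1, 73.6 and 28.4 CPM in controls and 20.8, 12.6, 22.2 and 17.2 in mutants (adjusted p = 0.137, log2 fold change -1.42, SE 0.32), while Igtp (adjusted p = 0.255, log2 fold change -1.80, SE 0.48) and Gbp2 (adjusted p = 0.0655, log2 fold change -0.97, SE 0.19) also missed the threshold. Sequences are from RefSeq, build GRCm38.p6, 5′ to 3′ in the gene's direction. In the paralogs Irgm2 and Igtp, a gamma-activated site stands just before the response element, and in Gbp2 the element lies on the other strand.
Irgm2 (chr11:58214887-58214946, plus strand): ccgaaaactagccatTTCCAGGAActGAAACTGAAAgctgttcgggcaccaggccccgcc
Igtp (chr11:58199496-58199555, plus strand): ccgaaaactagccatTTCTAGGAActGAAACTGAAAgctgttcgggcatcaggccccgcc
Gbp2 (chr3:142620583-142620642, plus strand): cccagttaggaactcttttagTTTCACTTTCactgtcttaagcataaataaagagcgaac

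Genes that handle drugs and other foreign compounds were mostly below their control level. Of 36 tested, 2 were called lower, 32 were below 0 (median -0.64) and 11 had mutants below all controls. Markers of enterocytes, which express many of these genes, were not called: 5 of 6 were below 0 (median -0.65, 2 without overlap), and their summed CPM was 17023, 31167, 15321 and 18972 in controls and 17809, 12779, 14399 and 7657 in mutants. Their part in the list's values was not tested. Cyp2c55, a cytochrome P450, had 113, 116, 59.2 and 66.5 CPM in controls and 7.24, 4.56, 4.51 and 1.51 in mutants (adjusted p = 0.00758, log2 fold change -4.29, SE 0.44). Ugt1a1, which conjugates bilirubin, had 95.4, 93.5, 86.5 and 99.0 CPM in controls and 68.4, 61.9, 57.9 and 51.8 in mutants (adjusted p = 0.0378, log2 fold change -0.64, SE 0.11). Both fell in every mutant, but by very different amounts. The glutathione transferase Gstm3 (adjusted p = 0.0726, log2 fold change -2.04, SE 0.38), and the cytochromes Cyp3a25 (adjusted p = 0.0919, log2 fold change -1.65, SE 0.33) and Cyp3a11 (adjusted p = 0.115, log2 fold change -3.16, SE 0.66) did not pass. Cyp3a11 had 1125, 2567, 733 and 992 CPM in controls and 333, 106, 113 and 53.3 in mutants, with the control NF29 far above the others. The nuclear receptors for foreign compounds, Nr1i2 and Nr1i3, overlapped between groups, with log2 fold changes of 0.00 (SE 0.19) and 0.05 (SE 0.14). Cyp2c55 lost its call without NFVCT38 (adjusted p = 0.0531) and with the acinar covariate (0.0519), and Ugt1a1 in 6 of the 8 such fits (up to 0.137). Without NF29 the median of the list was -0.38.

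The other genes called higher belong to no single list. Esr1, the estrogen receptor alpha gene, had 2.11, 3.36, 1.28 and 3.96 CPM in controls and 49.9, 33.3, 45.0 and 33.9 in mutants (adjusted p = 0.000306, log2 fold change 3.89, SE 0.30), the largest rise of all called genes. The CreERT2 protein of the mutants' transgene joins Cre to part of a human estrogen receptor; the deposited counts are per gene, so where in Esr1 the reads lie was not analysed here. The estrogen target genes Greb1 (adjusted p = 0.973, log2 fold change -0.09, SE 0.23) and Pgr (adjusted p = 0.998, log2 fold change -0.01, SE 0.46) overlapped between groups. Mgat4c, a gene of the N-glycan branching enzymes, had 2.33, 1.81, 4.53 and 1.603 CPM in controls and 15.4, 17.6, 19.97 and 12.7 in mutants (adjusted p = 0.00287, log2 fold change 2.70, SE 0.30), and Gcnt3, a mucin glycan enzyme, was not called (adjusted p = 0.0905, log2 fold change 0.96, SE 0.21). H2-Q10, which codes for a secreted class I molecule, had 5.42, 3.36, 5.05 and 3.91 CPM in controls and 22.9, 15.7, 27.5 and 12.1 in mutants (adjusted p = 0.00493, log2 fold change 2.15, SE 0.27). It has near-identical relatives, so its counts are uncertain.

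Cpn2, a subunit of a plasma carboxypeptidase, had 4.06, 2.33, 4.96 and 2.004 CPM in controls and 10.2, 14.9, 11 and 8.66 in mutants (adjusted p = 0.0316, log2 fold change 1.76, SE 0.29). Lmna, which codes for the nuclear lamins A and C, had 73.3, 70.4, 75.9 and 75.3 CPM in controls and 136, 131, 111 and 102 in mutants (adjusted p = 0.0317, log2 fold change 0.70, SE 0.12). Ttc39a had 12.2, 12.4, 9.83 and 11.02 CPM in controls and 18.3, 19.8, 17.4 and 19.3 in mutants (adjusted p = 0.0331, log2 fold change 0.72, SE 0.12). These 3 rises were smaller than those of Esr1, Mgat4c and H2-Q10, and were lost in 6, 6 and 8 of the 8 fits that each lacked 1 library (up to 0.0964, 0.131 and 0.128). The immunoglobulin segments Igkv14-100 and Igkv3-4 were called higher too, and each lost its call in 6.

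Paneth and goblet cells, the other secretory cells of the epithelium, held no called gene. All 18 Paneth genes tested were above 0 (median 0.59) and 10 had mutants above all controls. Ang4, an antibacterial protein of Paneth granules, had 156, 75.8, 146 and 147 CPM in controls and 298, 274, 289 and 192 in mutants (adjusted p = 0.100, log2 fold change 1.01, SE 0.23). Lyz1, the Paneth lysozyme, overlapped (adjusted p = 0.911, log2 fold change 0.21, SE 0.25). Of 20 goblet genes, 19 were above 0 (median 0.39) and 5 had mutants above all controls, among them Bcas1 (adjusted p = 0.0565, log2 fold change 0.66, SE 0.13), Retnlb (adjusted p = 0.0696, log2 fold change 3.39, SE 0.66) and the goblet factor Spdef (adjusted p = 0.212, log2 fold change 0.51, SE 0.14). The main mucin Muc2 overlapped (adjusted p = 0.908, log2 fold change 0.23, SE 0.27). DESeq2 called 3 Paneth and 4 goblet genes higher, whereas limma-voom called 0 in either list. Lists of tuft cells (13 genes, median 0.24), stem cells (17, 0.03) and proliferation (18, 0.01) held no call.

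The Reg family of secreted lectins varied widely between libraries. Reg3b, an antibacterial lectin of the gut epithelium, had 3184, 414, 3811 and 472 CPM in controls and 11022, 13596, 11942 and 7693 in mutants (adjusted p = 0.244, log2 fold change 2.49, SE 0.72). All mutants exceeded all controls, but NF29 and NF152 were far below NF17 and NF32. Reg3g had the same order of groups (adjusted p = 0.512, log2 fold change 1.79, SE 0.72). Reg4, a lectin of endocrine and goblet cells, went the other way, at 91.4, 106, 66.4 and 155 CPM in controls and 41.8, 43.9, 44.1 and 29.4 in mutants (adjusted p = 0.0508, log2 fold change -1.39, SE 0.24). Reg2 and Reg3d, which the pancreas also makes, were highest in NFVCT190 and NFVCT27, the mutants with the larger acinar shares. Reg2 had 2797, 482, 411 and 4562 CPM in mutants and at most 259.5 in controls. The acinar share was 17.7% in the control NF17, 14.4% in NFVCT27, and 2.57 and 2.76% in NFVCT38 and NFVCT153. The part of acinar RNA in Reg2 was not tested. None of the 7 Reg genes was called, and 4 had mutants above all controls (median 1.94). With the acinar score as covariate Reg4 was called lower (adjusted p = 0.0350), and Reg3a was among 2 called higher (0.0146).

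**Figure D5:**
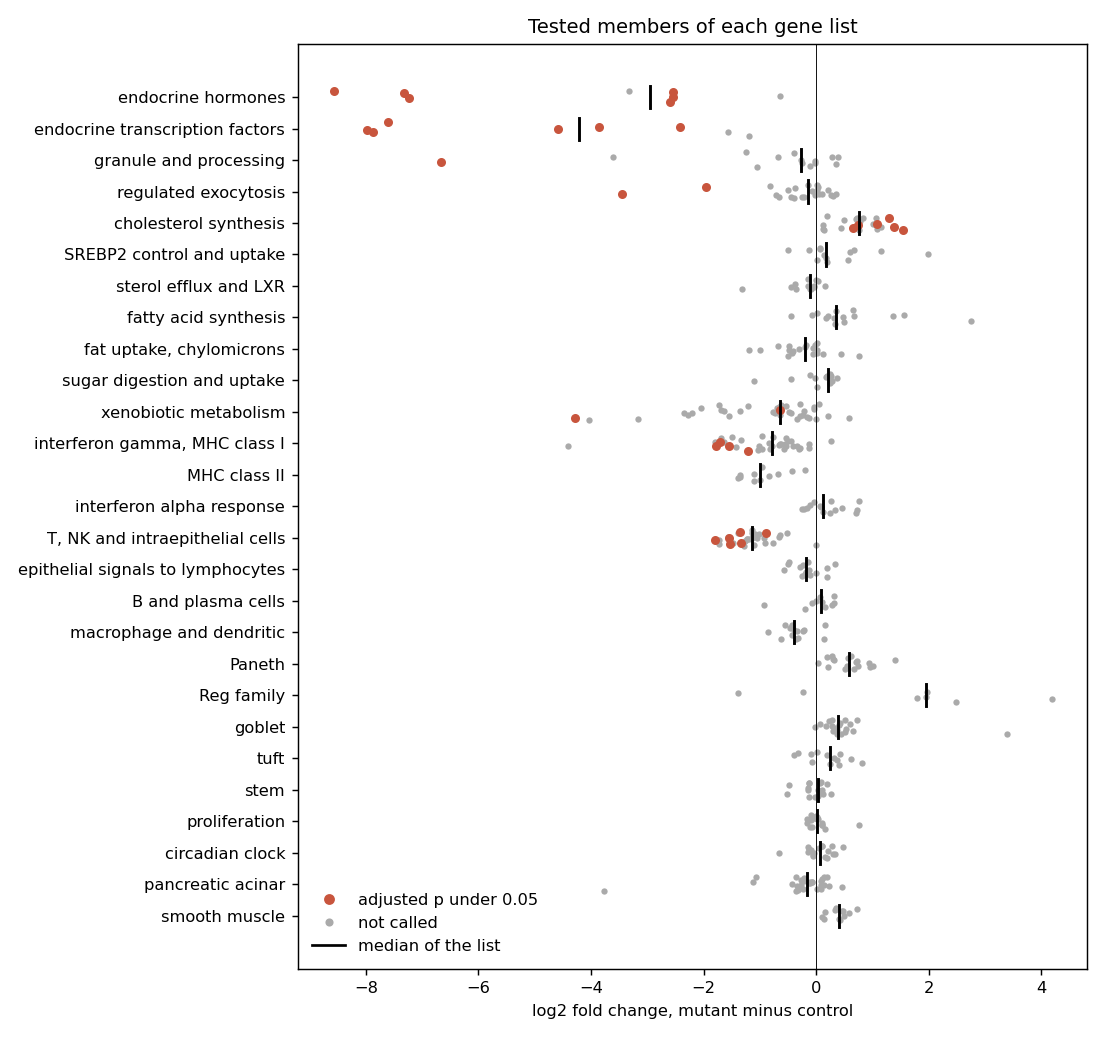
Each point is a tested member of a gene list, at its log2 fold change, mutant minus control; red points were called at an adjusted p under 0.05 and black lines are list medians. Hormones, endocrine factors, T cell, interferon gamma and MHC class II lists lie left of 0 and cholesterol synthesis right of it, while stem, proliferation and clock lists centre near 0.

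Remaining lists give the background against which these groups stand. Of 18 circadian clock genes and 14 immediate early and heat shock genes, none was called or without overlap (medians 0.07 and 0.05). Smooth muscle genes were all above 0 without a call (12 genes, median 0.41), and overlapped between groups. Of 11 iron genes, 10 were below 0 (median -0.43), with the transferrin receptor Tfrc lower in every mutant (adjusted p = 0.383, log2 fold change -0.49, SE 0.17). The calcium carrier S100g was lower in every mutant but varied widely, at 94.1, 425, 55.8 and 244 CPM in controls and 48.7, 53.3, 3.85 and 41.7 in mutants (adjusted p = 0.525, log2 fold change -2.48, SE 0.96). Of 16 glycolysis genes, all were above 0 (median 0.27), and the glucose transporter Slc2a1 had mutants above all controls (adjusted p = 0.143, log2 fold change 0.50, SE 0.12).

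The genotype effect in the ileum of the same animals was set beside that in the duodenum for the genes called in the duodenum. In the ileum 490 of 14951 genes were called (3.28%). Of the 58 duodenal calls, 54 were tested there and 33 were called too. Both tissues came from the same 8 animals, so the ileum is no independent repeat. The difference of the effects, ileum minus duodenum, was called for 7 of 15882 genes (0.0441%), of which 2 were duodenal calls. Mgat4c rose in the duodenum but had a log2 fold change of -0.08 (SE 0.12) in the ileum (difference -2.78, SE 0.32, adjusted p = 0.000819). Trpa1 fell in the duodenum but had 0.06 (SE 0.32) in the ileum (difference 3.59, SE 0.48, adjusted p = 0.00403). Without NFVCT38 the difference for Trpa1 had an adjusted p = 0.0530. Reg4, just short of a call in the duodenum, had the opposite sign in the ileum (1.16, difference 2.56, SE 0.39, adjusted p = 0.0262), and Sis, the sucrase gene, differed through its ileal value (1.92, difference 1.69, SE 0.28, adjusted p = 0.0262). The Reg4 difference lost its call without NF29, NF152, NFVCT27, NFVCT38 or NFVCT153 (adjusted p up to 0.229), and that of Sis without any control, NFVCT27 or NFVCT38 (up to 0.296). Without NFVCT38, 1 gene kept a called difference.

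The differences between tissues were not called for the cholesterol enzymes, whose fold changes were smaller in the ileum. Cyp51 had 0.58 there (SE 0.18, difference -0.94, SE 0.25, adjusted p = 0.392), and Msmo1 had 0.45 (SE 0.15, difference -0.83, SE 0.28, adjusted p = 0.778). For Cd3e and Lck the ileal values were close to the duodenal ones, at -1.90 (SE 0.38) and -1.24 (SE 0.24). Esr1 rose in the ileum as well (3.62, SE 0.21), and so did H2-Q10 (1.18, SE 0.22). Gcg, which did not pass in the duodenum, was called lower in the ileum. With the animal as a block, 16 genes had a called difference. The difference for Gcg was then called (adjusted p = 2.97e-05), while without the block it was not (0.288), and that for Sis was lost (0.0835).

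The varying share of pancreatic RNA was entered in the test in 3 ways. With an acinar score as covariate, 49 genes were called and 33 of the 58 kept their call. Without NF17 and NFVCT190, 31 were called, 26 of them among the 58. Scaling and testing without acinar genes kept all 58. All 58 had the same direction in each of these fits. Of the 58, 23 were called in every alternative in which they were tested. These were Gip, Sst, Cck, Ghrl, Sct, Tac1, Chgb, Tph1, Trpa1, Neurog3, Neurod1, Lmx1a, Insm1, Afp, Adgrg4, Pzp, Gfra3, Vwa5b2, Cyp51, Iigp1, Esr1, Mgat4c and H2-Q10.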

How the data were processed

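Total RNA, depleted of ribosomal RNA and made into stranded libraries per the labels' protocols, was sequenced from duodenum and ileum of 8 mice, 4 per genotype. The deposited table holds read counts per Ensembl gene, 1 column per sample and 55359 genes, with no normalization. Build mm39 and the tools HTSeq 0.6.1p1, STAR 2.5.3a, Bowtie2 2.2.8, cutadapt 1.10 and bcl2fastq 2.20.0.422 stand in the submitters' processing notes, without roles. For the annotation release and the strand setting, the answer is not given in the sources used here. Symbols were matched by Ensembl ID for 52083 genes, which held 98.1% of duodenal counts.

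Counts of the 8 duodenal libraries were filtered (filterByExpr), scaled (TMM) and tested across genes with the edgeR 4.0.16 quasi-likelihood test (robust, R 4.3.3), Benjamini-Hochberg adjusted, with a call at an adjusted p under 0.05. SE is the size of the log2 fold change over the square root of F. The 95% intervals of a percent of control level are exact binomial (Clopper-Pearson, from the mutant share of the counts), and these and the floors of 3 counts over a group cover counting error only. The difference between tissues is the interaction in the 16 libraries. Each animal gave both tissues, and same-animal libraries deviated together (correlations of 0.127 to 0.327, though NFVCT190 correlated more with another animal, at 0.218), so an animal block was the paired alternative. Other alternatives were relative log expression scaling, tests without acinar genes, other filters, DESeq2 1.42.0, limma 3.58.1 voom, a prior that was not robust, the acinar score as covariate, all 16 libraries, and leaving out libraries. Counts were also simulated for this comparison over 14703 genes. Of 100 genes with a log2 change of 1, 62 were recovered, and of 100 with a change of 2, 90. Of 167 calls, 15 were false. Genes were drawn independently, without variation shared between genes such as that of acinar RNA, so these shares need not hold for the data.

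The members and 58 gene lists were chosen with earlier results of these data known, and lists got no test. Named were the endocrine hormone and factor genes, every called gene, with values by library for the 12 largest changes each way without overlap (mean CPM 1 or more), and up to 4 genes of smallest p per list. Called predicted genes and receptor or immunoglobulin segments are named without a description. Other genes named for their role (for example Muc2, Cd4 and Lyz1) were chosen after their values were seen. Promoter motifs were searched in the 250 bases before the RefSeq start (GRCm38.p6), which is not the build of the counts. Sqle, Iigp1, Gbp4 and Nlrc5 had no entry. Some members of the lists, 1 called gene among them, are counted but not reported here by name.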

Additional observations from a re-analysis of the deposited data

Results flagged for a closer look

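For 73 measures, each group of 4 libraries was searched for 1 library far from the other 3 (by Dixon's 95% critical value for the gap over the range), which chance alone gives in about 1 in 20 groups. Of 143 groups, 5 held such a library. NF29 stood above the other controls for Msmo1, a cholesterol enzyme, at 72.65 CPM, and for the receptor segment Tcrg-C2, at 5.86 CPM. NF152 stood above them for the vesicle gene Stxbp5l, at 3.608 CPM. Among mutants, NFVCT190 stood highest for the factor Myt1, at 1.007 CPM. The 1 mutant count of Neurod1 lay in NFVCT38, at 0.0536 CPM, against 0 in the other 3. The rule flags any count beside 3 zeros, so this flag does not mark NFVCT38 as unusual.

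The genotype effect differed between tissues by the interaction test for 4 named genes. The log2 difference, ileum minus duodenum, was -2.78 for the glycan enzyme Mgat4c, 3.59 for the irritant channel Trpa1, 2.56 for the lectin Reg4 and 1.69 for the sucrase gene Sis.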

How the results depend on the processing

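All 58 called genes kept their direction in every alternative in which they were tested. Against 58 calls (14 higher, 44 lower), counts were 169 without a filter (53 and 116), 290 with DESeq2 (112 and 178), 151 in the fit over 16 libraries (58 and 93), and 31 without NF17 and NFVCT190 (6 and 25). The cause of these differences was not tested. DESeq2 called all 58, and the fit without NF17 and NFVCT190 called 26 of them. Leaving out 1 library gave 27 to 61 calls (4 to 19 higher, 21 to 42 lower), with 27 without NFVCT38, 28 without NF17 and 38 without NF29. Of the 58, 26 lost their call in 5 or more of these 8 fits. Relative log expression scaling, omission of acinar genes, the stricter filter, voom, the prior that was not robust and the acinar covariate gave 46 to 71 calls. Medians changed sign in at least 1 alternative for many lists. Among those near 0 were the fatty acid oxidation, interferon alpha, B and plasma cell, stem, proliferation, clock, and immediate early and heat shock lists. Medians further from 0 did so too, as for nutrient and irritant sensing (-0.32, range -0.80 to 0.06) and fat uptake (-0.20, range -0.43 to 0.02). Low counts limit the factors of the endocrine lineage: 5 of 13 fell below the filter.

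In the comparison between tissues, the paired fit with the animal as replicate block called 16 genes against 7, and the fit without a filter 15. Leaving out 1 animal gave 1 to 9. Within the duodenum no paired fit was possible, because no animal is in both genotypes.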
